A study of Homo sapiens with 32 samples.

Results

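The 9 genes CD34, PROM1, SPINK2, MECOM, ERG, HLF, BAALC, MN1 and ADGRG1, which are used to mark haematopoietic stem cells or leukaemia stem cells, were described across 32 established human cell lines of acute myeloid leukaemia (AML). They are 9 of the 19775 genes that had a probe set with a single gene symbol on the Affymetrix arrays, and 20 probe sets named them. Each gene was read from its probe set with the highest mean level over the 32 lines, so no difference between lines was used to choose it. Total RNA of each line was hybridised to 1 array, with no repeat array, so no line has an error of its own and the spread given is that between lines. The study set expression against how each line responded to PIM kinase inhibitors; that response was not analysed here. All lines came from cell repositories and were untreated as far as the labels say. Growth media were RPMI 1640 for 21 lines, IMDM for 4, RPMI 1640 with interleukin-3 at 5 ng/ml for F-36P, and alpha-MEM with GM-CSF or SCF for OCI-AML2, OCI-AML3 and OCI-AML5. The medium of MV4-11, MOLM-13 and MOLM-16 was not stated. KG-1A is a subline of KG-1, and PLB-985 of HL-60. Each of these pairs was averaged, which left 30 independent lines.

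In normal marrow these genes are active in stem cells or early progenitors, and several of them are turned down as cells mature. CD34 is a surface sialomucin, PROM1 (CD133) a membrane glycoprotein of cell protrusions, and ADGRG1 (GPR56) an adhesion G protein-coupled receptor. SPINK2 is a secreted-type serine protease inhibitor. MECOM (which encodes EVI1), ERG and HLF are DNA-binding transcription factors of the zinc finger, ETS and PAR bZIP families. BAALC is a membrane-associated cytoplasmic protein and MN1 a transcriptional coactivator, and high levels of either, of ERG or of MECOM have been linked to poor outcome in AML. Several of the genes are combined in published stemness scores, among them LSC17, which holds CD34 and ADGRG1.

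The promoters of 4 members are shown, because each took part in a pair that passed below (CD34 with SPINK2, CD34 with ADGRG1, MECOM with ADGRG1) and their proximal sequences differ in CpG content. Each is the run of 120 bases ending just before the annotated start in RefSeq (GRCh38.p14), read 5′ to 3′ on the gene's strand, with CG dinucleotides in capitals. The windows are chr1:207911126-207911245 on the minus strand for CD34, chr4:56821870-56821989 on the minus strand for SPINK2, chr3:169663713-169663832 on the minus strand for MECOM and chr16:57619618-57619737 on the plus strand for ADGRG1.
CD34: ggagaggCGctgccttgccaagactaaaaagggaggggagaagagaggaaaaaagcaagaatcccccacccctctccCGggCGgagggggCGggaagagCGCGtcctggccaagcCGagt
SPINK2: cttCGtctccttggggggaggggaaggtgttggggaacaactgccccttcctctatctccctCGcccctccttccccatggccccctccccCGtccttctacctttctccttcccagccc
MECOM: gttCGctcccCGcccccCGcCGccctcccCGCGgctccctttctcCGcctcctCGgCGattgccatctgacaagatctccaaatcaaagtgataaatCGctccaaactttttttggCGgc
ADGRG1: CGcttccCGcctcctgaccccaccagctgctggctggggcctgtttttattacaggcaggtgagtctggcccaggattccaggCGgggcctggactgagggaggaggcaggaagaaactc
These windows hold 7 CG dinucleotides in CD34, 3 in SPINK2, 11 in MECOM and 3 in ADGRG1. Over the 250 bases before the start, ADGRG1 had 4 and SPINK2 5, against a median of 11 over 27305 promoters of the same length, while CD34 and MECOM each had 14 and PROM1 13. The ERG window had 44 and more CG than 99.2% of promoters, and HLF had 25; the start used for ERG lies within the span of the gene, so its letters are not shown. Promoter sequences were matched for 7 of the 9 members, not for BAALC and MN1. Searched on both strands, the GATA letters AGATAA were found in 0 of the 7 windows of 250 bases and in 9.37% of all promoters. The ETS letters CCGGAAG were found in 0 of 7 and in 8.82%. The RUNX letters TGTGGT were found in 0 of 7 and in 10.9%. CANNTG (E-box) was found in all 7, once each except 3 times in ADGRG1, and in 62.2% of all promoters. TATAAA was found in HLF and in 11.1% of all promoters. Absence of a match says only that these letters are not in this window.

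The arrays differed in quality in ways that touch these genes. The median signal lay between 68.2 and 115.4 on 30 arrays and was 198.4 on NOMO-1 and 243.3 on GF-D8. The GAPDH control probe sets give a 3′ over 5′ ratio, a sign of RNA or labelling quality, which was 0.871 to 1.24 on 24 arrays and 2.42 to 7.08 on NOMO-1, GF-D8, GDM-1, THP-1, NB-4, ML-2, HL-60 and MOLM-13. The blood cell genes PTPRC, LCP1, CORO1A and LAPTM5 were above the array median in all 30 independent lines and SPI1 in 27. B cell, T and NK cell, and stromal or epithelial markers were above it in 41.7%, 29.2% and 48.5% of readings. The T and NK cell markers had their highest summed level in KG-1/KG-1A. Levels below are log2(signal + 16), and a level above the median of all probe sets of the same array is taken as a moderately bright signal, not as a detection call. Levels of different genes come from different probe sets and are not compared with each other.

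Among the surface genes, CD34 was high in 8 of the 30 independent lines and low in most others. Its level ran from 4.73 in MV4-11 through a median of 6.65 to 13.44 in GDM-1, with an SD of 2.56. The 8 lines were GDM-1, ME-1 (12.49), KG-1/KG-1A (12.48), HNT-34 (11.83), SET2 (11.27), KASUMI-1 (10.94), F-36P (10.55) and FKH-1 (10.14), and the widest gap in the order, 1.66, separated FKH-1 from MO7E (8.48). ME-1 and KG-1/KG-1A cannot be ordered by a difference of this size on single arrays. ADGRG1 ran from 4.32 in OCI-AML3 through a median of 6.47 to 12.85 in MO7E, with HNT-34 next at 12.54, then FKH-1 (10.55), GDM-1 (10.32), HEL (10.15), SET2 (10.03) and F-36P (9.98). KG-1A alone read 11.19 in ADGRG1 and KG-1 7.05, averaged here to 9.12. ADGRG1 was above the array median in 14 lines. KASUMI-1 was high in CD34 and low in ADGRG1 (4.49), and HEL the reverse (CD34 at 6.80). PROM1 was low nearly everywhere, from 4.17 in HEL through a median of 5.37 to 9.97 in ME-1. It was above the array median in 3 lines, which were ME-1, GDM-1 (8.15) and SH-2 (6.72). GF-D8 read 7.5, below its own array's median of 8.02.

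**Figure D1:**
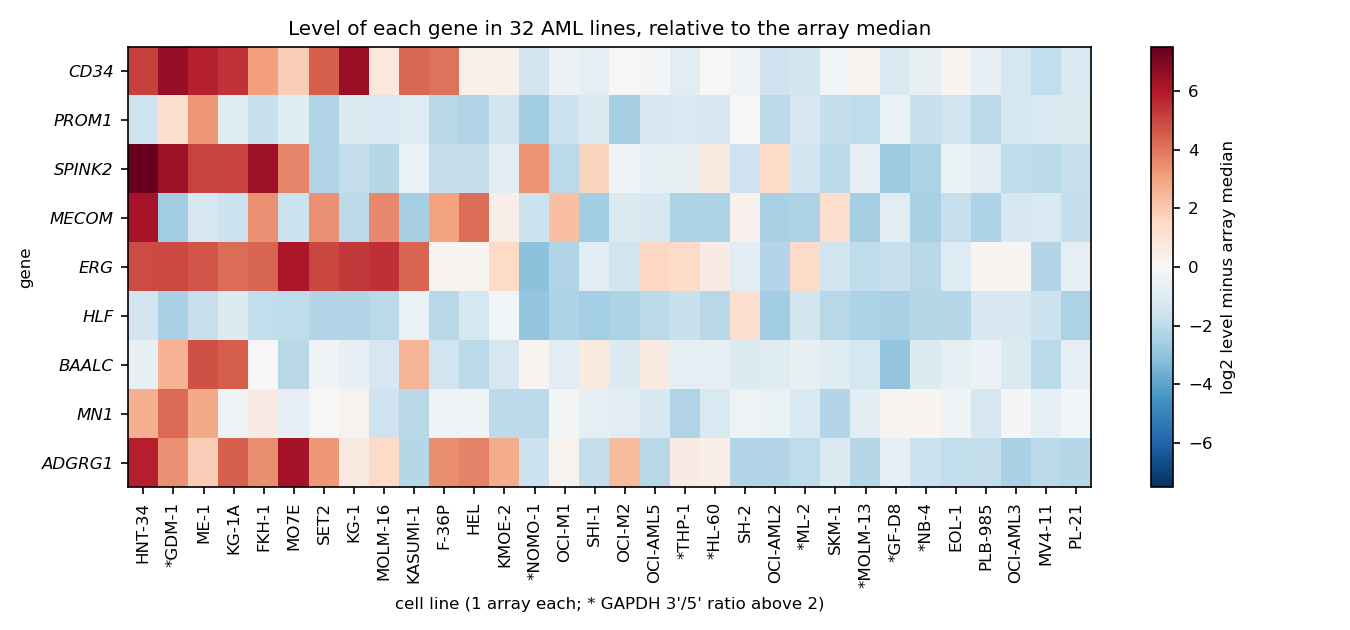
Level of each of the 9 genes (rows) in each of the 32 lines (columns, 1 array each) as log2 level minus that array's median, red above and blue below; an asterisk marks the 8 arrays with a GAPDH ratio above 2. HNT-34, GDM-1, ME-1, KG-1A and FKH-1 at the left are red for most genes, HLF is red in SH-2 alone, and MECOM is blue in GDM-1, ME-1 and both KG-1 lines.

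SPINK2 ran from 4.23 in NB-4 through a median of 5.97 to 14.19 in HNT-34, with an SD of 3.01 that ranked 48th among the 15455 genes tested. FKH-1 (13.40), GDM-1 (13.27), ME-1 (11.83), NOMO-1 (11.09) and MO7E (10.28) followed, and 21 lines lay at 6.44 or below. Of these high lines, NOMO-1 was low in CD34 (6.30), and the CD34-high lines SET2 (4.54), F-36P (4.71) and KASUMI-1 (6.16) were low in SPINK2. KG-1A alone read 11.82 in SPINK2 and KG-1 4.63, averaged here to 8.22. SPINK2 was higher on arrays with a higher median signal (rho 0.54 over 30 lines), as were BAALC (0.495) and PROM1 (0.454). The part of array brightness in their levels was not tested.

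Of the transcription factor genes, ERG and MECOM were both high in HNT-34, FKH-1, SET2 and MOLM-16 and otherwise in different lines. ERG fell into separate sets of lines: 9 lay between 11.01 (KASUMI-1) and 12.71 (MO7E), and the other 21 between 4.29 (OCI-M1) and 8.20 (OCI-AML5). That gap of 2.81 was 0.334 of the whole range. MOLM-16 was second at 12.07, and GDM-1, SET2, HNT-34, ME-1, FKH-1 and KG-1/KG-1A filled the places between, from 11.86 down to 11.32. MECOM ran from 4.11 in NB-4 through a median of 5.49 to 12.89 in HNT-34, 2.28 above the next line, HEL (10.61). FKH-1 (10.45), SET2 (10.25) and MOLM-16 (10.20) lay close behind, then F-36P (9.52) and OCI-M1 (8.82). GDM-1 (4.32), KASUMI-1 (4.13), KG-1/KG-1A (4.77) and ME-1 (5.51), all high in CD34 and ERG, were low in MECOM. HLF was low in all lines but SH-2, where it read 7.95 against 4.19 to 6.36 elsewhere, and it did not pass the filter for testing. All 3 HLF probe sets were highest in SH-2, at 7.95, 7.85 and 7.32.

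BAALC and MN1 were raised in few lines. BAALC ran from 4.43 in HEL through a median of 5.81 to 11.52 in ME-1, then GDM-1 (9.49), KASUMI-1 (9.19) and KG-1/KG-1A (8.53). MN1 ran from 4.26 in SKM-1 through a median of 6.11 to 11.15 in GDM-1, then ME-1 (9.58), HNT-34 (9.38) and GF-D8 (8.24). On the bright GF-D8 array this was 0.22 above the array's median, less than FKH-1 (7.65) at 0.62 above its own. ME-1 and GDM-1 were the top 2 independent lines of PROM1, BAALC and MN1, with GAPDH ratios of 0.876 and 6.66. For BAALC this order rests on averaging KG-1 (5.81) with KG-1A, which alone read 11.25, above GDM-1. KASUMI-1 was high in BAALC and low in MN1 (4.54), and HNT-34 the reverse (BAALC at 6.12).

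**Figure D2:**
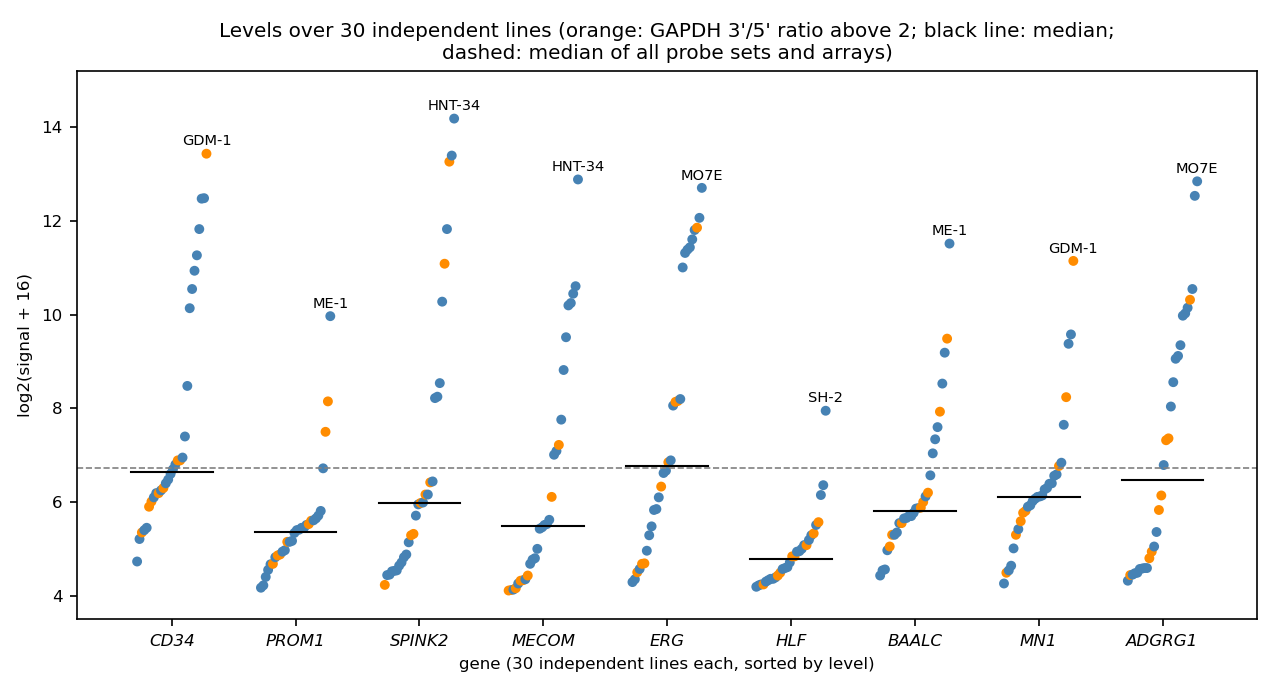
Level of each gene as log2(signal + 16) in the 30 independent lines, 1 point per line in rising order, with the median as a black line and the top line named; the dashed line, at 6.73, is the median over every probe set and array. ERG shows a gap between 8.20 and 11.01, and PROM1, MECOM, HLF and BAALC each end in 1 line set apart.

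MECOM, ERG, HLF, BAALC and ADGRG1 had other probe sets, which followed the main one to different degrees. The second BAALC probe set had r 0.908 with the main one over 30 lines, though NOMO-1 read 5.6 on it and 7.93 on the main one. The other HLF sets had r 0.656 and 0.852, the other ERG sets 0.848 to 0.946, and the second brightest MECOM set 0.973. The other 3 MECOM sets were rarely above the array median (0, 1 and 1 line), with r of -0.0998, 0.504 and 0.561. The second ADGRG1 set had r 0.63 and its highest level in GF-D8 (8.99) rather than MO7E.

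Counted by line, GDM-1, ME-1 and FKH-1 had 7 of the 9 genes above their array median, HNT-34 had 6, and SET2 and KG-1/KG-1A had 5. MV4-11 and PL-21 had 0. At least 2 log2 units above it, GDM-1, ME-1 and HNT-34 had 6 genes each and FKH-1 had 5. The lines with many members did not hold the same ones: GDM-1 and ME-1 had CD34, PROM1, SPINK2, ERG, BAALC, MN1 and ADGRG1 above it and MECOM and HLF below it, while HNT-34 had MECOM above it and PROM1, BAALC and HLF below.

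Lines of shared origin differed in part of the set. KG-1 and KG-1A were alike in CD34 (12.80 and 12.16) and ERG (11.72 and 10.91). They were far apart in SPINK2 (4.63 and 11.82), BAALC (5.81 and 11.25) and ADGRG1 (7.05 and 11.19), all higher in KG-1A. The other BAALC probe set gave the same split, 4.66 and 11.21, and the other ADGRG1 set a smaller one, 4.95 and 7.02. The SPINK2 difference of 7.20 ranked 8th of 15455 genes, that of BAALC 67th and that of ADGRG1 189th; 5.87% of genes differed by over 2, and the median absolute difference was 0.469. The averaged value of this pair (8.22 for SPINK2) is therefore a level that neither line has. HL-60 and PLB-985 differed most in ADGRG1 (7.02 and 4.64), and the HL-60 array had a high GAPDH ratio. With 1 array a line these differences have no replicate check.

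**Figure D3:**
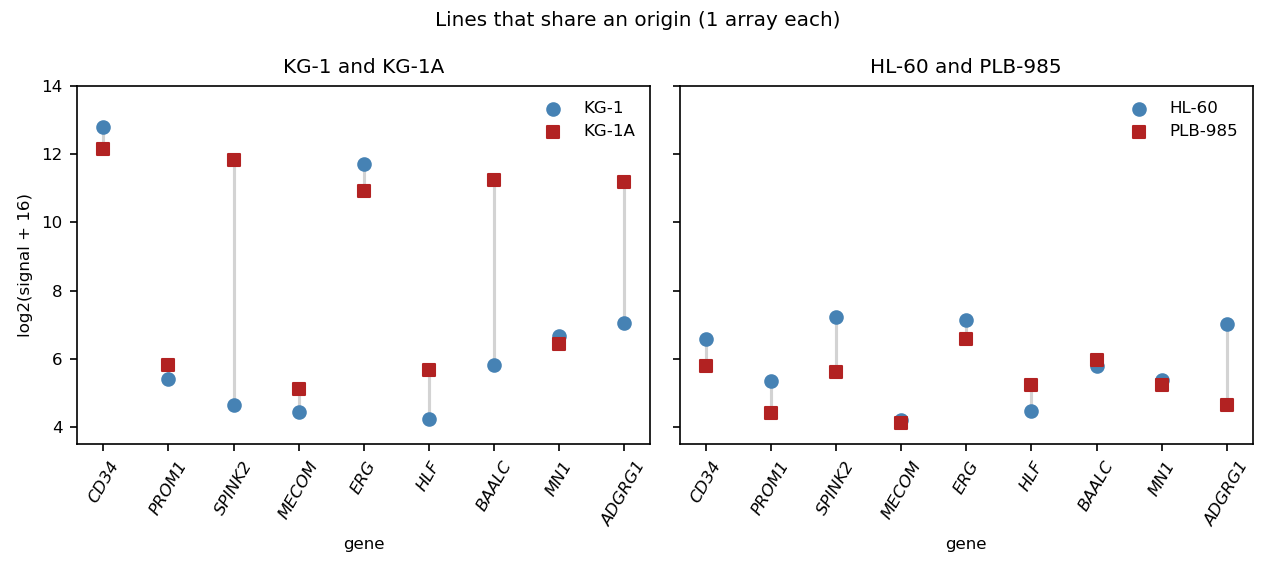
Level of the 9 genes as log2(signal + 16) in KG-1 and KG-1A (left) and HL-60 and PLB-985 (right), 1 array each, joined by grey lines. SPINK2, BAALC and ADGRG1 are 4.14 to 7.20 higher in KG-1A, while CD34 and ERG lie within 0.80 of each other.

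Of the 28 pairs of the 8 members that could be tested, 6 passed in both directions, all with positive slopes. A gene passed when its slope on a member in limma, fitted over all 15454 other genes and 30 lines, had a Benjamini-Hochberg adjusted p under 0.05, and a pair passed when each gene did in the fit on the other. The genes with a positive slope that passed made up 0.802% of those tested in the fit on CD34, 0.0841% on PROM1, 0.744% on SPINK2, 0.556% on MECOM, 0.44% on ERG, 0% on HLF, 0.0324% on BAALC, 0.142% on MN1 and 3.16% on ADGRG1. Those with a negative slope made up 0.356%, 0.0841%, 0.22%, 0.265%, 0.104%, 0.00647%, 0.0129%, 0.0518% and 2.64%, in the same order. Against this background, 5 of the 7 other members rose with CD34 (ERG, ADGRG1, BAALC, MN1 and SPINK2) and 4 of 7 with ADGRG1 (CD34, ERG, MECOM and SPINK2). With SPINK2 2 of 7 rose (CD34 and MN1), with ERG 2 (CD34 and ADGRG1), with PROM1 1 (BAALC), with MECOM 1 (ADGRG1), with MN1 1 (SPINK2), and with BAALC and HLF none. These counts depend on the adjustment, which is set by all genes of each fit. At an unadjusted limma p under 0.05, 6 members rose with each of CD34, SPINK2, ERG and MN1. The count was 5 with each of PROM1, BAALC and ADGRG1, 1 with MECOM and 0 with HLF. Such a p was common over all 15454 genes, counted in either direction. It was held by 1783 genes with CD34, 1983 with PROM1, 2235 with SPINK2, 2039 with MECOM and 1780 with ERG. With BAALC 975 genes had it, with MN1 2079, with ADGRG1 2800, and with HLF 467 of 15455. No member fell with another.

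CD34 and ERG had the closest relation of the 36 pairs. Pearson's r was 0.772 and Spearman's rho 0.672 over 30 lines; ERG rose by 0.87 (SE 0.13) per log2 unit of CD34 and CD34 by 0.69 (SE 0.10) per unit of ERG (limma, larger adjusted p = 0.000882). Every CD34-high line except F-36P (ERG at 6.67) was ERG-high, and MO7E and MOLM-16 were ERG-high without being in the CD34-high set. As levels fall into sets, r was also taken within them: 0.601 in the 22 lines below the CD34 gap and 0.454 in the 8 above it, but 0.168 in the 21 below the ERG gap and -0.527 in the 9 above it. The pair passed under all 12 alternative settings and with each of the 30 lines left out.

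ADGRG1 was the other gene that passed in several pairs. It passed with CD34 (r 0.651, rho 0.652, larger adjusted p = 0.0111 in limma), with ERG (0.652, 0.563, 0.0152) and with MECOM (0.575, 0.504, 0.0496). With CD34 the relation lay in the 22 lower lines (r 0.734), not in the 8 CD34-high lines (0.119). ERG and ADGRG1 did not pass without MO7E, the top line of both (adjusted p = 0.0617). MECOM and ADGRG1 sat at the threshold: the pair passed with 8 of the 30 lines left out in turn and in 5 of 12 alternatives, and p rose to 0.123 without SET2.

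SPINK2 passed with CD34 (r 0.585, rho 0.395, larger adjusted p = 0.0467 in limma) and with MN1 (0.644, 0.222, 0.0408). Both relations rested on few lines. Within the 21 lines below the SPINK2 gap r was 0.0187 with CD34 and -0.334 with MN1, and in the 9 above it 0.551 and 0.732. Without GDM-1 the adjusted p was 0.182 and 0.252, and without HNT-34 0.114 and 0.122. With KG-1 alone in place of the KG-1 average, an alternative added after seeing the data, p was 0.115 and 0.0508; with KG-1A alone, also added, it was 0.0237 and 0.0558. Without NOMO-1 and GF-D8 both pairs passed (0.0186 and 0.00899). Neither passed with quantile normalization (limma adjusted p = 0.0749 and 0.126) or with each array centred on its median (0.0967 and 0.12). The pair with CD34 passed with 12 of the 30 lines left out in turn and in 5 of 12 alternatives. The pair with MN1 passed in 17 of 30 and 6 of 12. Without the 8 arrays of high GAPDH ratio, which leaves 23 independent lines, CD34 and ERG remained the only pair of the 6 that passed (adjusted p = 0.0121). The others had 0.0923 (ERG and ADGRG1), 0.117 (MECOM and ADGRG1), 0.125 (CD34 and ADGRG1), 0.132 (SPINK2 and MN1) and 0.211 (CD34 and SPINK2), with r of 0.622, 0.619, 0.624, 0.712 and 0.545 on those arrays.

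**Figure D4:**
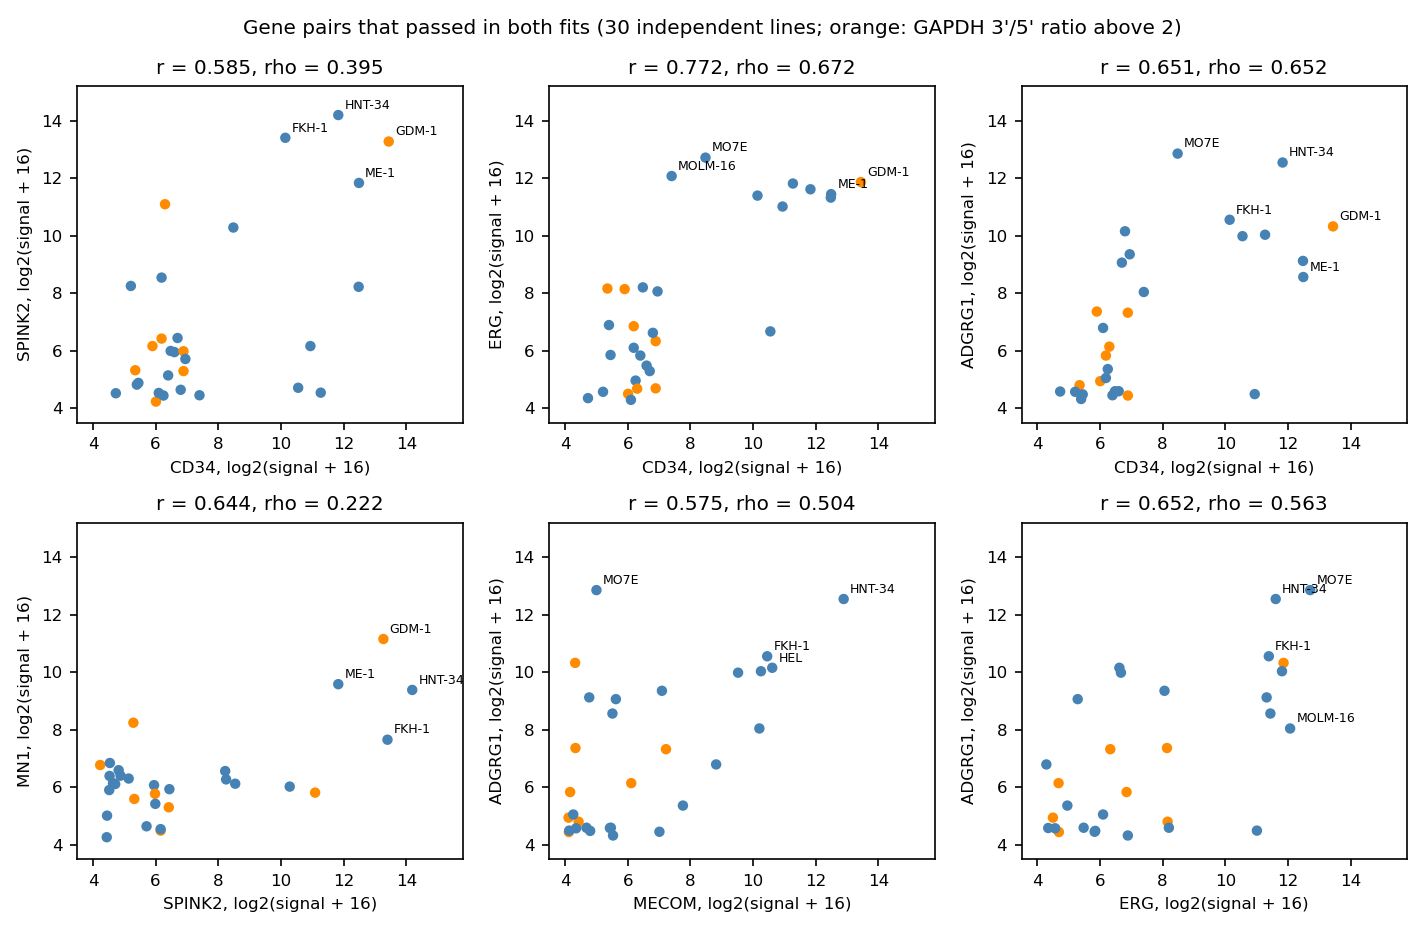
The 6 gene pairs that passed in both fits, each axis the level of a gene as log2(signal + 16), 1 point per independent line, with the top lines named and orange for a GAPDH ratio above 2. CD34 and ERG show 7 lines high in both, and SPINK2 and MN1 show a flat cloud with GDM-1, HNT-34, ME-1 and FKH-1 above it at high SPINK2 and GF-D8 above it at low SPINK2.

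Several relations of PROM1, BAALC and MN1 were weaker without ME-1 and GDM-1. BAALC rose in the fit on PROM1 (slope 0.88, SE 0.19, limma adjusted p = 0.0342) but not the reverse (0.104), and r fell from 0.649 to 0.143 without ME-1 and GDM-1. BAALC (adjusted p = 0.021) and MN1 (0.0293) rose in the fit on CD34 but not the reverse (0.136 and 0.0615). Unadjusted limma p was alike in both directions: 5.31e-05 and 7.4e-05 for PROM1 with BAALC. It was 0.000132 and 0.000105 for CD34 with BAALC, and 0.000258 and 0.000201 for CD34 with MN1. The difference in calls came from the adjustment, which depends on the other genes of each fit. Without ME-1 and GDM-1, r of CD34 went from 0.621 to 0.416 with BAALC and from 0.60 to 0.348 with MN1. PROM1 and CD34 had r 0.408 with them and -0.0615 without. MECOM had the most negative r of any member with PROM1 (-0.217) and BAALC (-0.25), with slopes that did not pass. BAALC and SPINK2 had r 0.557 and rho 0.604 but did not pass (limma adjusted p = 0.0637 and 0.267). Their r was 0.565 without HNT-34 and ME-1, the top line of each. HLF had r between -0.0473 and 0.269 with the other 8.

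Over all genes, 7 of 17 tested genes of other immature blood cells rose with CD34, and 3 genes of mature myeloid cells fell. In the limma fit on CD34, 124 genes rose and 55 fell. The most alike were CALCRL, an adrenomedullin and CGRP receptor component (r 0.79, slope 0.51, SE 0.074, adjusted p = 0.000882), the synaptic scaffold gene SHANK3 (r 0.764) and GUCY1A1, a soluble guanylate cyclase subunit (r 0.747). The 7, with none falling, included GUCY1A1 (slope 0.73), HOPX (0.79) and EGFL7 (0.67), and the median slope was 0.34 against 0.00141 over all genes. The gene lists were chosen with earlier results of these data known. Their counts here and in the fits below are therefore descriptions, not independent support. Of the 15 other LSC17 genes 4 rose, including ARHGAP22 (0.72), SMIM24 (0.83) and FAM30A (0.67). Of 19 stem cell transcription factor genes MYCN, TAL1 and GFI1B rose, and of 25 surface and signalling genes TIE1 and CD200. Among granulocyte genes MS4A3 (-0.66) and PRTN3 (-0.86) fell of 15 tested, and among 16 monocyte genes MNDA (-0.70). These calls were near the threshold: with 1 line left out at a time PRTN3 lost its call in 24 of 30 fits, MS4A3 in 17, MNDA in 13 and, among those that rose, GFI1B in 24. VWF rose of 16 megakaryocyte genes, and none of 16 erythroid, 8 HOXB or 2 HOXA genes passed. The number passing was 90 without GDM-1, 112 without ME-1, 112 without HNT-34 and 31 without the arrays of high GAPDH ratio.

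ERG shared part of these partners. In its fit 68 genes rose and 16 fell. SVOPL, a transporter-like gene, was most alike (r 0.801, slope 0.54, SE 0.075, limma adjusted p = 0.000412), then SHANK3 (0.781) and BCR (0.779), the GTPase-activating partner in the BCR-ABL1 fusion. Of the LSC17 genes 4 of 15 rose, SMIM24 most (slope 0.82), with NYNRIN (0.41) and FAM30A (0.57). Of other immature genes 4 of 17 rose, including HOPX (0.69), GUCY1A1 (0.59) and EGFL7 (0.59), with a median slope of 0.32. MYCN (0.73) and TAL1 (0.64) rose among the transcription factors and TIE1 (0.66) among surface genes. No gene of the monocyte, granulocyte, erythroid, megakaryocyte or HOX lists passed. The number passing was 34 without GDM-1, 55 without MO7E, 51 without FKH-1, 170 without OCI-M1, 146 without OCI-M2, 145 without HEL and 42 without the arrays of high GAPDH ratio. CD34 and ERG are fitted on the same arrays, so the genes shown for both are not separate evidence.

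SPINK2 was most like HOPX, a homeodomain-only protein of stem cells (r 0.83, slope 0.80, SE 0.097, limma adjusted p = 3.04e-05). KCNK17, a potassium channel (r 0.819), and RBPMS, an RNA-binding protein (r 0.799), came next. The lower-coordinate ends of HOPX and SPINK2 lie 162 kb apart. In this fit 115 genes rose and 34 fell. Besides HOPX, GUCY1A1 (slope 0.64) and CRHBP (0.27) rose among 4 of 17 other immature genes, SMIM24 (0.61) and ARHGAP22 (0.48) were the LSC17 genes that rose, and MYCN (0.71), ITGA6 (0.42) and VWF (0.46) rose in 3 further lists. With 1 line left out at a time, ARHGAP22 lost its call in 20 of 30 fits and ITGA6 in 23. No listed monocyte, granulocyte or erythroid gene passed, and all 16 erythroid slopes were negative. The number passing was 40 without GDM-1, 95 without THP-1, 94 without OCI-M1, 73 without ME-1, 69 without HNT-34, 66 without FKH-1, 89 without HEL and 578 without GF-D8. It was 40 with each array centred on its median and 59 without the arrays of high GAPDH ratio.

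In the limma fit on MECOM 86 genes rose and 41 fell. USP44, a deubiquitinase (r 0.845, slope 0.58, SE 0.069, adjusted p = 1.93e-05), ALDH1A1, an aldehyde dehydrogenase used to sort stem cells (r 0.815, slope 0.92), and NHSL3 (r 0.744) were most alike. Of 15 granulocyte genes 4 fell, among them RNASE2 (-0.88), AZU1 (-0.89) and CSF3R (-0.46), and the median slope was -0.44 against -0.000674 over all genes. HBB (0.39) rose of 16 erythroid genes, all with positive slopes, TUBB1 (0.40) of 16 megakaryocyte genes and HOXB2 (0.68) of 8 HOXB genes. NFE2 (0.37) and ESAM (0.64) rose and the chemokine receptor CXCR4 (-0.71) fell. With 1 line left out at a time, AZU1, CSF3R and NFE2 each lost the call in 17 of 30 fits, HBB in 18, CXCR4 in 13, ESAM in 8, HOXB2 in 7, TUBB1 in 3 and RNASE2 in 2. None of 15 LSC17 genes passed, although 13 had positive slopes (median 0.32). This count was unsteady: leaving out 1 line at a time gave 32 (MOLM-16) to 480 (HNT-34) and changed it by over 1.5 times for 20 of the 30 lines, and it was 22 without the arrays of high GAPDH ratio.

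ADGRG1 had by far the most genes moving with it, 489 up and 408 down in limma. GCSAML, a germinal centre signalling-like gene (r 0.919, slope 0.99, SE 0.078, adjusted p = 6.39e-10), GFI1B, a transcriptional repressor required for erythroid and megakaryocyte development (r 0.904, slope 1.13), and NLRP2 (r 0.867) were most alike. Of 16 megakaryocyte and platelet genes 8 rose, among them ITGA2B (slope 0.88), SELP (0.41) and RAB27B (0.75), and of 16 erythroid genes RHAG (0.59), HBD (0.50) and CA1 (0.49); with 1 line left out at a time HBD lost its call in 17 of 30 fits and CA1 in 20. Of the LSC17 genes 7 of 15 rose, with NYNRIN (0.54), ARHGAP22 (0.72) and FAM30A (0.72) strongest by p, and the median slope was 0.47 against 0.00247 over all genes. MMRN1 (0.58), which rose, belongs to both the LSC17 and the megakaryocyte list. Of other immature genes 9 of 17 rose, including EGFL7 (0.70), ALDH1A1 (0.72) and HOPX (0.69). Of 19 stem cell transcription factor genes 5 rose, with GFI1B, TAL1 (0.92) and GATA2 (0.39) leading, and GFI1 (-0.43) fell; HOXB2 (0.67), HOXB4 (0.35) and HOXB3 (0.44) rose of 8 HOXB genes.

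In the same fit genes of mature myeloid cells went down. Of 15 granulocyte genes 5 fell, with AZU1 (-1.14), PRTN3 (-1.19) and RNASE2 (-1) first, and LCN2 rose (0.32). Of 16 monocyte genes 4 fell, including MNDA (-0.86), TLR4 (-0.49) and TLR2 (-0.69). TIE1 (0.86) and ESAM (0.76) rose and CXCR4 (-0.71), FLT3 (-0.56) and CLEC12A (-0.49) fell among 25 surface and signalling genes. The number passing ranged from 705 without MO7E to 1052 without GF-D8.

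**Figure D5:**
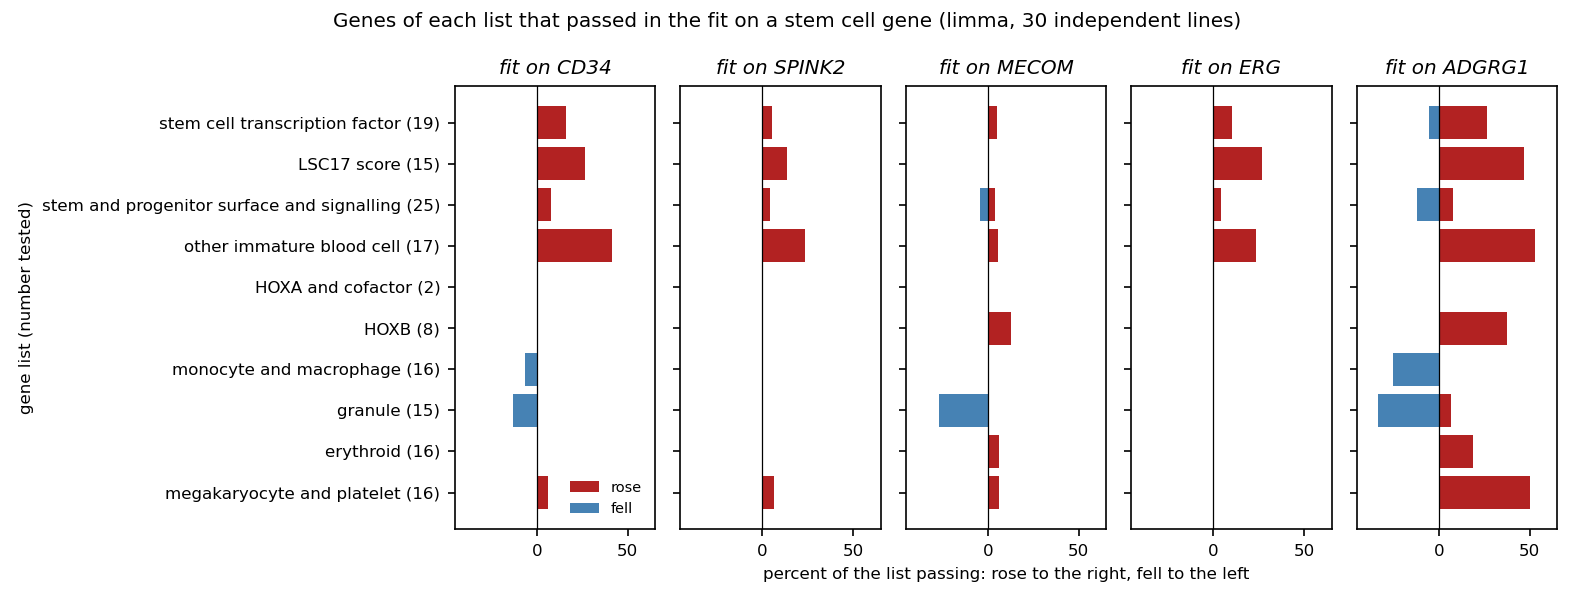
Percent of the tested genes of each list that passed in the limma fit on CD34, SPINK2, MECOM, ERG or ADGRG1 over 30 independent lines, red bars to the right for genes that rose and blue bars to the left for genes that fell; the number tested is beside each list. In the fit on ADGRG1, 9 of 17 other immature, 8 of 16 megakaryocyte and 7 of 15 LSC17 genes rose. Genes of the granulocyte list (labelled granule) fell in the fits on CD34, MECOM and ADGRG1.

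The remaining 4 genes had few genes that passed after adjustment. PROM1 had 13 genes up and 13 down, with ST18 (r 0.80), FGD5 (0.737) and AK5 (0.728) most alike, and CD200 (slope 1.29, limma adjusted p = 0.00891) and CRHBP (0.77) were the list genes that rose; the number passing was 449 without ME-1, 119 without NOMO-1, 47 without HNT-34 and 7 without GDM-1. In the fit on BAALC 5 genes rose (ST18, LINC01181, DLGAP3, LINC01114 and TRBV27) and 2 fell (SEC11C and ZNF641). ST18, a zinc finger gene, had r 0.872 with BAALC (slope 1.18, SE 0.12, adjusted p = 8.72e-07). Its level was 13.54 in ME-1, 9.31 in GDM-1, 7.71 in KG-1 and 7.88 in KG-1A, so it did not share the KG-1 split of BAALC. The BAALC count was 1 without ME-1, 3 without GDM-1, 13 without MO7E and 18 without GF-D8. In the fit on MN1 22 genes rose and 8 fell, with VWF (r 0.773), TRBV27 (0.763) and RBPMS (0.751) most alike, PRDM16 (slope 0.65), CRHBP (0.61) and GUCY1A1 (1.03) rising in the lists. PRDM16 lost its call in 12 of 30 fits with 1 line left out and GUCY1A1 in 23. The MN1 count was 2 without GDM-1, 94 without NOMO-1 and 0 without the arrays of high GAPDH ratio. HLF had 1 gene, HNRNPLL, which fell (slope -1.46, SE 0.25, adjusted p = 0.0361), and ZNF662 (r 0.645), CAMK2N1 (0.593) and ZNF385C (0.577) were most alike without passing. In 13 of the 30 fits that left out a line, no gene passed with HLF.

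Of 54 tested neighbours in the genome, 3 on each side of each member, 4 rose in the limma fit on that member and 0 fell. They were 1 of 6 for SPINK2 (0.744% of all genes rose in that fit), 1 of 6 for BAALC (0.0324%) and 2 of 6 for ADGRG1 (3.16%), with 0 of 6 for each other member. They were HOPX beside SPINK2 and LINC01181 at 20 kb from BAALC (slope 0.63, SE 0.098, adjusted p = 0.00242). The others were DOK4 (0.38, SE 0.076, p = 0.00194) and CCDC102A (0.25, SE 0.064, p = 0.0142). These lay 148 and 108 kb from ADGRG1, on its lower coordinate side. Distances are between the lower-coordinate ends of genes, whatever their strand. ADGRG3, 46 kb to the other side of ADGRG1, did not pass (adjusted p = 0.486), nor did ETS2 beside ERG (0.0682). HOPX was high in both KG-1 (13.05) and KG-1A (13.84), where SPINK2 differed, while LINC01181 was 6.13 and 9.36, in the same direction as BAALC. The choice of neighbours was made after levels of the members were known.

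Culture medium was the only condition the labels gave, and the contrast tested was lines with an added cytokine against lines with none named, in which no member passed. An added cytokine was given to 4 lines, and 23 independent lines had none named; line and medium cannot be told apart. ADGRG1 was 5.87 ± 2.75 (SD, n = 4) with a cytokine and 7.57 ± 2.69 (SD, n = 23) without, a difference of -1.71 (SE 1.4, limma adjusted p = 0.915). CD34 was 6.91 ± 2.49 and 8.05 ± 2.67, SPINK2 5.94 ± 1.64 and 7.42 ± 3.26, and ERG 6.58 ± 1.5 and 8.01 ± 2.92 (adjusted p = 0.934, 0.929 and 0.924). All 8 tested members were lower on average with a cytokine, as were 54.8% of all tested genes. The groups overlapped for every member: F-36P, grown with interleukin-3, was high in CD34, MECOM and ADGRG1, and the 3 OCI-AML lines were low in them. Of 15455 genes 0 (0%) passed in limma, 878 had an unadjusted p under 0.05, and the smallest adjusted p was 0.705.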

How the data were processed

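Total RNA of 32 AML lines was biotin-labelled and hybridised to Affymetrix arrays, 1 array a line. The deposited values are linear intensity per probe set, which the authors computed in Affymetrix Expression Console, per the submitters' processing notes; the version and summarization method are not given in the sources used here. The mean after trimming 2% at each end was 500.05 to 500.07 on every array. Log2(signal + 16) was taken with no further normalization. Of 54675 probe sets, 41097 had a single symbol and 1801 several in the platform annotation, and 19775 genes were represented by their brightest probe set. Of these, 15455 exceeded the global median (6.73) in at least 3 independent lines and were tested. This filter was passed by 8 members and not by HLF. PROM1 passed it only through ME-1 (9.97), GDM-1 (8.15) and GF-D8 (7.5), the last below its own array's median of 8.02. KG-1A was taken to be the entry "KG1?" of the labels' growth text.

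Each member's level was the only predictor in a limma fit (lmFit, eBayes with trend) over 30 independent lines, two-sided, with Benjamini-Hochberg adjustment over all tested genes. p-values measure the spread between lines. Correlations are descriptions and carry no p. On simulated data with 200 changed genes of 15454, 100% were recovered in the design of CD34 (5.21% of calls false) and 99% in that of ADGRG1 (5.26%). The planted slopes were of a single large size, scaled to each gene's SD. Noise was normal and independent between genes, unlike real genes. These rates therefore do not give the power for weaker relations or the false share in the real data. R 4.3.3, limma 3.58.1, Python 3.11.15, pandas 2.3.3 and matplotlib 3.10.9 were used. The number of arrays limits the precision.

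The members and gene lists were chosen with earlier results of these data known. Named genes are the members, the 3 non-member genes of highest r for each, and up to 3 passing genes of smallest p per list and member; the genome neighbours, the line-by-line values of ST18, HOPX and LINC01181 the names of BAALC and HLF calls, and GFI1, LCN2, FLT3, CLEC12A and MMRN1 were chosen after values were seen.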

Additional observations from a re-analysis of the deposited data

Results flagged for a closer look

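Among the 4 lines grown with an added cytokine, ADGRG1 in F-36P stood far from the others, at 9.98 against 4.32 in OCI-AML3, 4.57 in OCI-AML2 and 4.59 in OCI-AML5. Its gap to the nearest line was 0.952 of the group's range, above the Dixon 95% critical value for 4 samples. It was the only one of the 9 genes set apart in this way, and such a rule marks about 1 group in 20 by chance. Interleukin-3 was named for F-36P alone, so line and cytokine cannot be told apart.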

How the results depend on the processing

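The 8 arrays of high GAPDH ratio and a small number of lines that are high in several members limited these results. The 10 pair relations gave 118 values under 12 alternatives, of which 87 kept their side of the threshold, and 241 of 300 with a line left out; no direction reversed. Passing pairs (6) were 10 with a pseudocount of 64, 3 with 1 and 1 without the high-GAPDH arrays, and 3 to 8 with a line left out. PROM1 and BAALC had no value in 2 settings, where PROM1 was not tested.

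Counts of passing genes moved as follows. For CD34 (179) they were 299 with all 32 lines and 31 without the high-GAPDH arrays, and 90 to 230 with a line left out. For PROM1 (26) they were 42 with a pseudocount of 64, 17 with 1, 10 with quantile normalization, 2 with arrays centred on their median, 53 without NOMO-1 and GF-D8 and 5 without the high-GAPDH arrays, and 7 to 449 with a line left out. For SPINK2 (149) they were 224, 63, 52, 40, 416 and 59 in the same order, 90 with all 32 lines, 96 with KG-1 alone (added after seeing the data), and 40 to 578 with a line left out. For MECOM (127) they were 62 with a pseudocount of 64, 76 with no filter, 196 centred, 269 without NOMO-1 and GF-D8, 21 with the GAPDH ratio as covariate and 22 without the high-GAPDH arrays, and 32 to 480 with a line left out. For ERG (84) they were 145 with a pseudocount of 64, 162 with quantile normalization, 163 with all 32 lines, 173 without NOMO-1 and GF-D8 and 42 without the high-GAPDH arrays, and 34 to 170 with a line left out. For HLF (1) they were 3 with a pseudocount of 64, 2 with KG-1A alone (added after seeing the data), and 0 with a pseudocount of 1, with quantile normalization, centred, with all 32 lines, without NOMO-1 and GF-D8 and without the high-GAPDH arrays, and 0 to 10 with a line left out. For BAALC (7) they were 0 with a pseudocount of 1, 4 with quantile normalization, 4 centred, 3 with all 32 lines, 16 with the probe set of highest SD and 3 with KG-1A alone, and 1 to 18 with a line left out. For MN1 (30) they were 96 with a pseudocount of 64, 0 with 1, 19 with no filter, 9 with quantile normalization, 9 centred, 54 without NOMO-1 and GF-D8, 0 without the high-GAPDH arrays, 15 with KG-1 alone and 14 with KG-1A alone, and 2 to 94 with a line left out. The ADGRG1 count (897) stayed between 705 and 1226. The cause of these changes was not tested; leaving out arrays also leaves fewer samples.

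For 97 slopes of named genes, 1011 of 1161 values under alternatives and 2562 of 2910 with a line left out kept their side of the threshold, and none reversed. The cytokine count (0) was 0 under the alternatives and 0 to 1 with each cytokine line left out (1 without OCI-AML5). The MECOM difference between cytokine and no-cytokine lines (-0.23) ranged from -1.34 to 0.39 with each cytokine line left out, and it was positive without OCI-AML2 (0.39) and without OCI-AML5 (0.02). No paired analysis was possible because each line is 1 array and no replicate number pairs lines across groups.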

Other observations

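SPINK2 and MECOM had r 0.0927 over the 30 independent lines. Their r was 0.713 in the 9 lines above the SPINK2 gap, where HNT-34 and FKH-1 were high in both genes and GDM-1 and ME-1 in SPINK2 alone, and -0.585 in the 21 lines below it. The 9 ERG-high lines had r -0.655 between ERG and BAALC and 0.629 between ERG and ADGRG1. These values over so few lines are descriptions, and the sets were read from the levels themselves.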
